A study of Mus musculus with 2 samples.

Results

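The aryl hydrocarbon receptor gene Ahr and the genes of its feedback repressors, Ahrr and Tiparp, were compared between mouse Tc1 and Tc9 cells. These are CD8 T cells steered in culture toward making interferon gamma and interleukin 9, respectively. The genes were chosen by symbol, with earlier results of these arrays known. They are 3 of the 19505 genes measured, and each has 1 probe set. CD8 T cells isolated from spleen and lymph node were primed through CD3 and CD28 and polarized for 3 days. Tc9 polarization used IL-4 at 10 ng/mL, TGF-β at 1 ng/mL and the anti–IFN-γ antibody XMG1.2 at 20 μg/mL, whereas Tc1 polarization used human IL-2 at 10 ng/mL. Both groups then spent 2 further days with human IL-2 at 10 ng/mL. No mouse strain or age is given in the labels used here. Total RNA of day 5 was measured on 1 Affymetrix array per group, so the values below have no replicate check and no p-value, and they describe these 2 arrays. The title and description of the second sample name Tc9 cells while its source name says Tc1, and it was taken as Tc9 from its title. The series set out to select genes with higher expression in Tc9 than in Tc1 cells.

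AHR is a transcription factor of the bHLH-PAS family that small aromatic molecules activate, among them tryptophan products and environmental pollutants. Without ligand it rests in the cytosol in a complex with heat shock protein 90, and with ligand it enters the nucleus, pairs with ARNT and binds the xenobiotic response element, whose core is GCGTG. Both repressor genes are among its targets. AHRR resembles the receptor and competes with it for ARNT and for DNA, and TIPARP, also called PARP7, attaches ADP-ribose to the receptor and promotes its degradation. In T cells AHR is known from Th17 cells, which make IL-22, and from CD8 T cells that persist in barrier tissues.

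The start regions of the repressor genes show where the core occurs, and that of Cyp1a1, the classic AHR target, is set beside them. Ahrr and Tiparp, 2 of the 3 genes, matched the RefSeq promoter table (GRCm38.p6), and Ahr was not matched. Each line gives the 250 bases before the annotated start, 5′ to 3′ on the gene's strand, with the core in capitals, as GCGTG where it lies on the gene's strand and as CACGC where it lies on the other. The Ahrr stretch is chr13:74292332-74292581 on the minus strand, the Tiparp stretch chr3:65528197-65528446 on the plus strand and the Cyp1a1 stretch chr9:57697363-57697612 on the plus strand.
Ahrr: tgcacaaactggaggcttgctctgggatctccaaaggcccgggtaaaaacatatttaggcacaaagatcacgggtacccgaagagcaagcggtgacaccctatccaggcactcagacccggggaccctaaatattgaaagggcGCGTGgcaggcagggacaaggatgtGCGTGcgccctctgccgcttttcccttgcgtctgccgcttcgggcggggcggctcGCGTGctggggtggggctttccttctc
Tiparp: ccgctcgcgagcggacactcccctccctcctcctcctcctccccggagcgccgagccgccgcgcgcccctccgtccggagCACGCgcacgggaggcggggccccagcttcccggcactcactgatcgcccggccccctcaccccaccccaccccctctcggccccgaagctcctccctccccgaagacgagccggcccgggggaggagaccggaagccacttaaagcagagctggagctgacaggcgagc
Cyp1a1: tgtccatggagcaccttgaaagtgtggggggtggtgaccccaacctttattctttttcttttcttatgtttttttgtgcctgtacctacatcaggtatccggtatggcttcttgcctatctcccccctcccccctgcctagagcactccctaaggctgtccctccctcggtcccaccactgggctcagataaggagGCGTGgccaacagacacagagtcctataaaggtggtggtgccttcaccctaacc

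Ahrr held 3 copies of the core, which begin 107, 82 and 27 bases before the start, all on the gene's strand. Tiparp held 1 copy, on the opposite strand, with its first printed base 170 bases before the start. Cyp1a1 held 1 copy, 54 bases before the start. The core is common. Searched on both strands, GCGTG occurred in 32.4% of the 32851 windows of the table, which reach from 250 bases before to 50 after a start. The longer form TNGCGTG, which contains the core, occurred in 5.07% of windows. Ahrr, whose copy nearest the start has the longer form, was the only one of these 3 genes with a match to it. Sequence outside these windows was not searched, so the copy numbers do not count cores farther from the start. A match describes the letters and does not show binding.

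**Figure D1:**
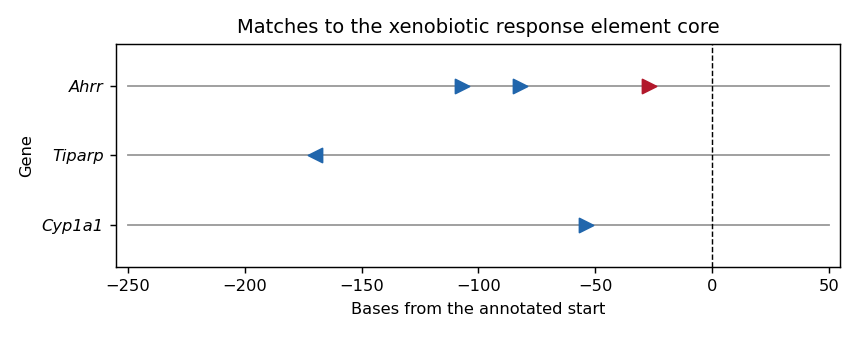
Matches to the core GCGTG in the windows of Ahrr, Tiparp and Cyp1a1, by distance in bases from the annotated start. Arrowheads point along the strand of the match, and the red one lies within the longer form; Ahrr has 3 matches, and Tiparp and Cyp1a1 have 1 each.

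Ahr had a far higher signal on the Tc9 array than on the Tc1 array, and the measured signals of both repressor genes were higher there too. The deposited intensity of Ahr was 53.8 in Tc1 cells and 567 in Tc9 cells, or log2 signals of 5.75 and 9.15. Ahrr had intensities of 84.5 and 167, or 6.40 and 7.38 on the log2 scale. Tiparp had intensities of 65.6 and 133, or 6.04 and 7.05. All 3 genes were thus dim in Tc1 cells and brighter in Tc9 cells, where Ahr stood 3.40 log2 units above its Tc1 signal, Ahrr 0.98 and Tiparp 1.02.

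Detectable genes were those whose brighter signal was at or above 6.43 on the log2 scale, the median of all gene values. On the Tc1 array each of the 3 genes lay under this threshold, and on the Tc9 array each lay over it. A fold with the dim value raised to the threshold is a lower bound as far as the threshold stands for background. On that basis the Tc9 signal of Ahr was higher by at least 6.57-fold, that of Ahrr by at least 1.94-fold and that of Tiparp by at least 1.54-fold. With a higher floor at the 95th percentile of the negative control probe sets, described below, the bounds fell to 3.97-fold for Ahr and 1.17-fold for Ahrr, and Tiparp lay under the floor on both arrays. So with either floor Ahr alone passed 2-fold by its bound, and at the 6.43 threshold 2.01% of the detectable genes did so upward and 2.22% downward. As measured, Ahr and Tiparp passed 2-fold, 2 of 3 genes, and Ahrr fell just short of it. Over the 10147 detectable genes, 2.62% passed 2-fold upward and 2.79% downward, and since the genes were chosen with these results known nothing is read from their own count.

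The repressor genes sat at the edge of the size rule and near the background of the array. Relative to 2-fold, the log2 difference of Ahrr was at -0.018 and that of Tiparp at 0.017. Among all detectable genes Ahr ranked number 16 by measured difference toward Tc9, Tiparp 259 and Ahrr 278. With dim values at the threshold the ranks were 22, 615 and 235. Detectable genes whose brighter log2 signal was under 8, as it was for both repressors, passed 2-fold upward in 3.07% and downward in 3.13% of 3159 cases.

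Probe sets with neg in their ID, called negative controls here, give a scale for signal outside the genes. Of the 5222 such sets, 83.0% were dimmer than Ahr in Tc1 cells and 98.7% in Tc9 cells. For Ahrr these shares were 89.5% and 96.2%, and for Tiparp 86.2% and 95.1%. Of the 585 negative controls that reached the threshold, none differed toward Tc9 by as much as Ahr, 23 did so by as much as Ahrr and 22 by as much as Tiparp, which is 3.93% and 3.76% of them. Differences among these controls ran from -2.42 to 1.61. They leaned toward lower Tc9 signals, with a median of -0.37, 12.5% past 2-fold downward and 3.76% upward. The measured Ahr difference of 3.40 lay outside this range, and the differences of both repressor genes lay inside it.

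**Figure D2:**
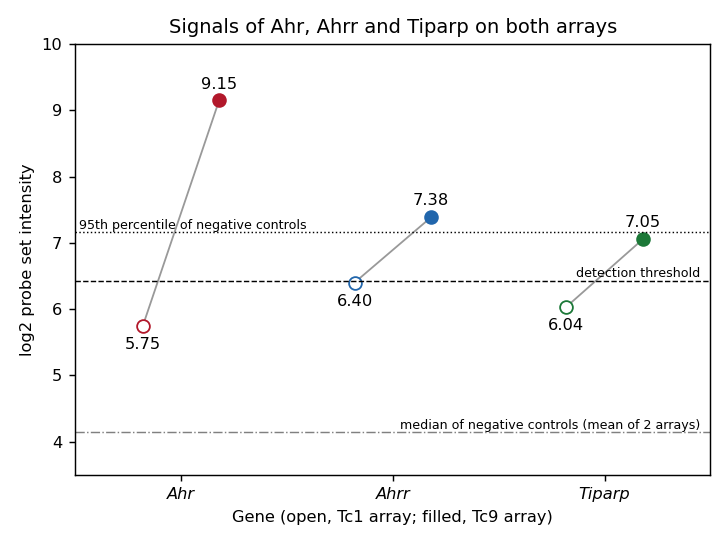
Log2 probe set intensity of Ahr, Ahrr and Tiparp on the Tc1 array (open) and the Tc9 array (filled), 1 array each, with the detection threshold and the level of negative controls as lines. Ahr goes from 5.75 to 9.15, while Ahrr and Tiparp end at 7.38 and 7.05, close to the 95th percentile of the negative controls at 7.16.

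The receptor was set against its repressors by the difference between their Tc9 minus Tc1 differences, because signals of different probes cannot be compared. The Ahr difference exceeded that of Ahrr by 2.42 and that of Tiparp by 2.38 on the log2 scale, as measured. All 3 Tc1 signals lay below the threshold, so the folds have lower bounds only, and these data do not order the receptor's fold against those of the repressors. With a pseudocount of 32 added before the logarithm, the excess was 2.03 over Ahrr and 2.05 over Tiparp. Under quantile normalization it was 2.42 and 2.35. These values rest on the dim Tc1 signals as measured. The 2-fold call of the repressors moved with the setting: Ahrr passed 2-fold after median centring, at 1.05, and Tiparp fell under it with the pseudocount, at 0.76.

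**Figure D3:**
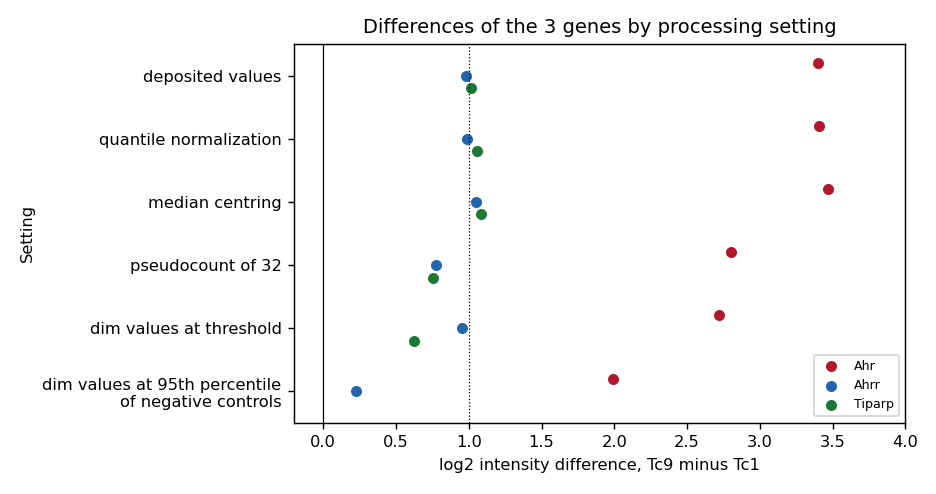
Log2 intensity difference, Tc9 minus Tc1, of Ahr (red), Ahrr (blue) and Tiparp (green) under 6 processing settings, with 2-fold as the dotted line. Ahr stays between 1.99 and 3.47, and the repressors lie on either side of 2-fold; Tiparp has no value in the lowest setting, where it is below the threshold on both arrays.

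The culture labels were checked on 5 identity genes. Il9, the cytokine that names Tc9 cells, had a Tc1 signal of 4.82 and a Tc9 signal of 8.45 on the log2 scale. Ifng, Tbx21 and Eomes, genes of the type 1 program, differed by -1.71, -3.05 and -1.06, and Cd8a by -0.26. All 7 measured T cell markers were detectable, Cd3e at 12.92 and 12.80, and their differences lay between -0.44 and -0.04. Cd4, a marker of helper T cells, was also detectable, at 9.33 and 8.74.

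Many cell types other than T cells express Ahr, and their markers were read beside it. Of 8 measured monocyte and macrophage markers, 3 were detectable and none of these passed 2-fold, with Lyz2, a lysozyme, at 8.36 and 8.79 and Fcgr3, an Fc receptor, at 8.41 and 7.54. Their summed intensity was 977 in Tc1 and 958 in Tc9 cells, a sum of markers that went opposite ways. Below the threshold on both arrays were Csf1r, at 5.94 and 6.11, Adgre1, at 5.02 and 5.80, and Cd14, at 6.09 and 5.55. So were Mrc1, at 3.55 and 5.05, and Mertk, at 4.24 and 4.51. Summed intensities went from 1001 to 724 for 8 dendritic cell markers, from 383 to 308 for 7 mast cell and basophil markers, from 315 to 307 for 6 stromal markers and from 4417 to 3141 for 7 B cell markers. Detectable were 2 of the 8, 1 of the 7, 2 of the 6 and 7 of the 7, respectively. Among the dendritic cell markers, the transcription factor Batf3, which T cells also express, was at 9.53 and 8.92 and Zbtb46 at 6.84 and 5.58. As measured, Zbtb46 was the only detectable gene of these lists past 2-fold, toward Tc1. Its Tc9 signal lay under the threshold, and its lower bound was 1.33-fold. Kit, a receptor of mast cells, was at 6.33 and 6.57, and Cpa3, a mast cell protease, at 6.34 and 5.37. The stromal genes Col1a1, a collagen, and Pdgfrb, a growth factor receptor, were at 7.22 and 6.98 and at 6.08 and 6.47. The B cell receptor chains Cd79a and Cd79b were at 10.65 and 9.68 and at 9.92 and 9.50. The sum of 5 epithelial markers went from 327 to 669. Cdh1, which encodes E-cadherin, was at 6.61 and 8.71, and Epcam, an adhesion molecule, at 6.28 and 6.58. The other 3 were below the threshold on both arrays. The sum of 7 NK and innate lymphoid markers went from 1575 to 2415. Tmem176b, a membrane channel gene, at 7.09 and 10.33, was the only detectable one of them past 2-fold. Il7r, a receptor that T cells share, was at 10.20 and 9.90. Ncr1, Klrb1c, Klrb1b and Klre1 were below the threshold on both arrays, each with a lower measured signal in Tc9 cells. The part of other cells in the Ahr difference was not tested beyond these values. In bulk RNA, more cells with a transcript and more transcript per cell cannot be told apart.

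Partners of the receptor differed little between the arrays. Arnt, the dimer partner without which AHR does not bind DNA, had log2 signals of 9.02 and 9.30, a difference of 0.28, and Arnt2, its relative, was under the threshold on each array. None of the 14 detectable nuclear partners and coactivators passed 2-fold, and their differences ran from -0.56 to 0.55 with a median of 0.08, against a median of 0.05 over all detectable genes. Ddb1, part of the ubiquitin ligase that AHR can join, was at 11.20 and 11.27, and Sp1, a general transcription factor, at 11.15 and 11.25. None of the 5 measured chaperone genes passed 2-fold either. Hsp90aa1, a heat shock protein 90 gene, was at 12.31 and 12.02, Stip1, its co-chaperone, at 11.61 and 11.79, and Ptges3, the p23 co-chaperone of the resting receptor, at 8.50 and 8.54.

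Cyp1a1, Cyp1b1 and Nqo1, through which AHR activity is often read, were not detectable in either group. Cyp1a1, a cytochrome P450 that AHR ligands induce, had log2 signals of 4.24 and 4.87. Cyp1b1, its relative, had 4.35 and 4.94, and Nqo1, a quinone reductase, 4.75 and 5.56. They are among 7 of the 11 measured genes of the xenobiotic battery that stayed under the threshold, for which no fold is given. Of the 4 detectable ones, 1 passed 2-fold upward and 1 downward, beside 2.62% and 2.79% of all detectable genes. Cyp2s1, a cytochrome P450 known as a dioxin-inducible gene, had intensities of 96.5 and 532, or log2 signals of 6.59 and 9.06. Its value was 5.51-fold higher in Tc9 cells and over the threshold on both arrays. The Tc1 signal lay under the 95th percentile of the negative controls, and with dim values set there the fold was 3.73. Xdh, xanthine dehydrogenase, was 2.66-fold lower, at 8.91 and 7.50. Hmox1, heme oxygenase, was at 8.53 and 8.46, and the median of the 4 was 0.03.

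Genes tied to AHR in lymphocytes differed toward Tc9 wherever a detectable one passed 2-fold. Of 18 measured genes, 10 were detectable, and 5 of these passed 2-fold upward and none downward, beside 2.62% and 2.79% of all detectable genes. With dim values at the threshold 4 did so, without Il10. Itgae, the CD103 integrin chain of resident T cells, had log2 signals of 5.38 and 10.76, a lower bound of 20.1-fold. Cxcr6, a chemokine receptor of such cells, had 4.80 and 8.40, a lower bound of 3.91-fold. Il10, a regulatory cytokine, had log2 signals of 4.15 and 7.38 and was at least 1.93-fold higher. Maf, a transcription factor of IL-10 producing T cells, had 6.08 and 8.68 and was at least 4.77-fold higher. These bounds use the detection threshold. At the 95th percentile of the negative controls they fell to 12.1-fold for Itgae and 2.36-fold for Cxcr6. For Il10 and Maf they fell to 1.17-fold and 2.88-fold. Ikzf3, the lymphoid factor Aiolos, was 2.10-fold higher, at 9.12 and 10.19. Stat3 was at 11.40 and 11.28, and Socs2, a cytokine signalling inhibitor, at 10.80 and 11.71. The Th17-type genes of the list, Il22, Il21, Il17a, Il17f, Il23r and Ccr6, were all below the threshold on both arrays. The median of the 10 detectable genes was 0.99, against 0.33 over all 18 and 0.07 with dim values at the threshold. The list was written with earlier results for several of its genes known. Itgae, Cxcr6, Il10 and Maf were under the threshold in Tc1 cells, so they count as detectable only through their Tc9 signals. The counts and the median are given as a description, and nothing about AHR is read from them.

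Genes listed for AHR ligand supply showed 1 gene past 2-fold, upward, among 8 detectable of 15 measured, beside 2.62% of all detectable genes. The list held 16 genes, and Il4i1 had no value among the measured genes, so its part was not read. Slc7a8, an amino acid transporter of the L system, was 2.13-fold higher in Tc9 cells, at 7.24 and 8.33, and fell under 2-fold with the pseudocount of 32, at 1.93-fold. Its relative Slc7a5 and their shared heavy chain Slc3a2, through which tryptophan and kynurenine enter T cells, were at 11.77 and 11.33 and at 12.09 and 11.82. Ido1, Ido2 and Tdo2, which open tryptophan toward kynurenine, stayed under the threshold on each array. The median of the detectable genes was -0.10.

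Within the bHLH-PAS family, Ahr was not the only gene that was dim in Tc1 cells and bright in Tc9 cells. Of 14 other measured family genes, 6 were detectable, 3 of them higher by 2-fold or more on the Tc9 array and none lower by as much, beside 2.62% and 2.79% of all detectable genes. Epas1, the hypoxia-inducible subunit HIF-2 alpha, had log2 signals of 5.75 and 9.50 and was at least 8.39-fold higher. That bound uses the detection threshold, and at the 95th percentile of the negative controls it was 5.07-fold. Npas2, a partner of the clock factor BMAL1, was 2.78-fold higher, at 7.21 and 8.68, and Arntl, which encodes BMAL1, was 2.11-fold higher, at 6.83 and 7.90. Arntl fell under 2-fold with the pseudocount of 32, at 1.86-fold, and with dim values at the 95th percentile of the negative controls, at 1.67-fold, which left 2 genes. Hif1a, the other main hypoxia-inducible subunit, was 1.35-fold lower, at 12.32 and 11.88. The median over the 6 detectable genes was 0.73, and over all 14 it was 0.18. Raising dim signals to the detection threshold brought the median of the 14 to 0, as 8 of them lay below it on both arrays. The count of 3 stayed the same in that setting. Epas1 lay below the threshold in Tc1 cells, so its Tc9 signal alone made it detectable. The count and the medians describe this list, and no inference about the family is drawn from them.

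Tiparp also belongs to the PARP family of ADP-ribosyltransferases, of which 14 other genes were measured. All 14 were detectable, and 2 had a Tc9 signal lower by 2-fold or more, beside 2.79% of all detectable genes, and none one higher by as much. Parp12 and Parp14, both induced by interferons, were at least 2.48-fold and at least 2.56-fold lower, at 7.74 and 5.90 and at 7.79 and 6.28. Zc3hav1, the antiviral protein ZAP, was at 10.46 and 10.33, and Tnks2, a tankyrase, at 9.73 and 9.91. The highest difference among the 14 was 0.38, below the measured 1.02 of Tiparp, and their median was -0.26. With dim values at the threshold Tiparp was at 0.62. At the 95th percentile of the negative controls it lay below the floor on both arrays, so the order does not hold there. Under quantile normalization 4 of the 14 passed 2-fold downward, and with dim values at that percentile none did.

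**Figure D4:**
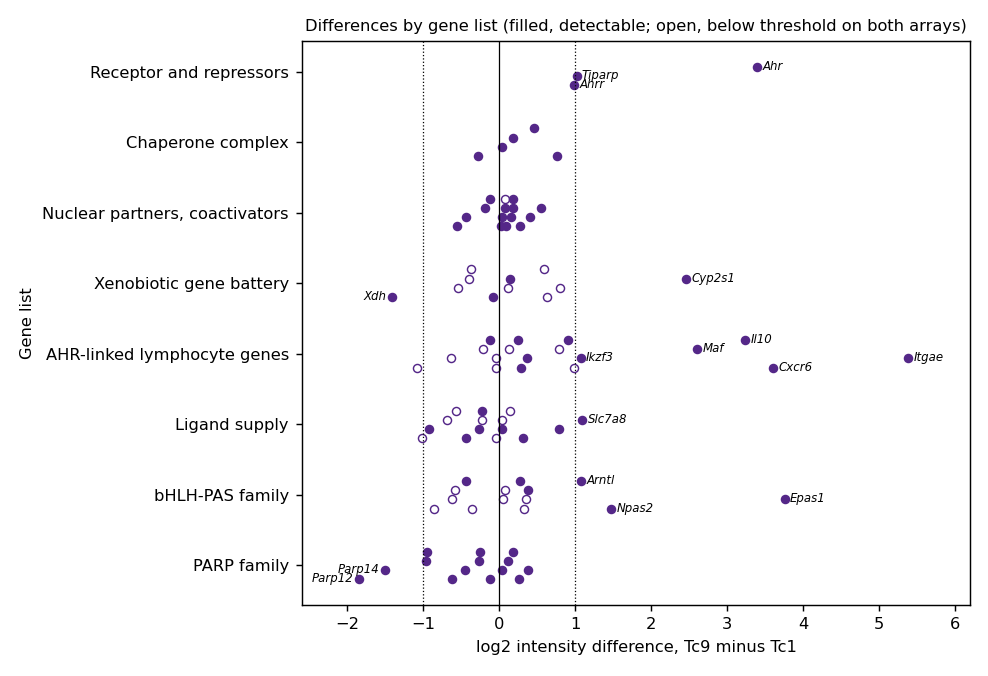
Log2 intensity difference, Tc9 minus Tc1, of each gene in 8 lists, with detectable genes filled, genes below the threshold on both arrays open, and 2-fold as dotted lines. The partners and chaperones lie within 2-fold, Itgae reaches 5.38 among the lymphocyte genes and Epas1 3.75 in the bHLH-PAS family, and the 2 PARP genes past 2-fold lie on the Tc1 side.

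The genes whose signals lay closest to those of Ahr were found by distance between log2 signals over the 2 arrays, among 9869 detectable named genes. The distance depends on the brightness of each probe set as well as on the difference between the groups, and the Tc1 signals of Ahr and of the 5 genes lay below the threshold. Ccl24, an eotaxin chemokine, was nearest at a distance of 0.13, with signals of 5.77 and 9.02. It was followed by Timd2, a TIM family receptor, at 0.31, Epas1 at 0.35, Rasgrp4, a Ras activator, at 0.42 and Il6ra, an IL-6 receptor chain, at 0.46. With 1 array per group, this likeness rests on 2 values per gene. Which cells in the cultures carried the transcripts of these genes, Ccl24 and Rasgrp4 among them, was not tested.

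**Figure D5:**
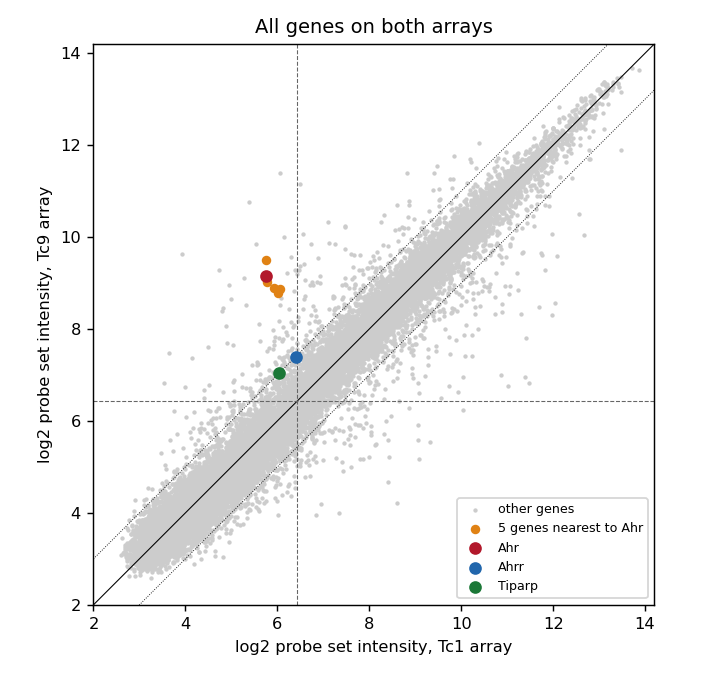
Log2 probe set intensity of 19505 genes on the Tc1 array (x axis) and the Tc9 array (y axis), with equality as a solid line, 2-fold as dotted lines and the detection threshold as dashed lines. Ahr (red) and its 5 nearest genes (orange), chosen for their closeness, lie above the 2-fold line, and Ahrr (blue) and Tiparp (green) lie on that line.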

How the data were processed

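The values are linear intensities per probe set, as deposited by the authors for 2 Affymetrix arrays. Per the labels' protocols, Trizol RNA received a biotin label through WT sense target labelling. For summarization, background correction, normalization and array build the sources used here give nothing, so no coordinates are given for probe sets, and those of the start regions come from RefSeq alone. The number of arrays limits the precision. Both arrays had close quantiles, with median intensities of 57.2 and 53.1, so log2 of the values was used as deposited. Of 28846 probe sets, 19572 had 1 gene symbol, none several and 9274 none, and all 19572 Entrez numbers matched the GRCm38.p6 RefSeq table. For 55 genes with several probe sets the brighter was used. Python 3.11.15, pandas 2.3.3 and NumPy 2.4.6 were used, and the counting code was checked on simulated data. No test was run, with 1 array per group.

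Members and lists were chosen with earlier results of these data known. The text names the 3 genes, the 5 nearest to Ahr, list members past 2-fold (at most 6) and the 2 brightest detectable members per list, the identity genes and the 2 brightest markers per list. Other genes (Arnt2, Cyp1a1, Cyp1b1, Nqo1, Ptges3, the genes below threshold and the clock genes) and the limit of 8 were chosen after their values were seen. Alternatives were quantile normalization, median centring, a pseudocount of 32, dim values at the threshold, a threshold at the 95th percentile of negative controls, and the mean of probe sets.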

Additional observations from a re-analysis of the deposited data

How the results depend on the processing

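The differences of Ahr, Ahrr and Tiparp kept their direction under every alternative that gave a value. Ahr stayed past 2-fold, with log2 differences from 1.99 to 3.47. Ahrr passed 2-fold after median centring, at 1.05, and was lowest, at 0.23, with dim values at the 95th percentile of negative controls, a log2 signal of 7.16. Tiparp fell under 2-fold with the pseudocount of 32, at 0.76, and with dim values at the detection threshold, at 0.62, both of which shrink differences of dim genes by construction. At the 95th percentile it was below the threshold on both arrays and has no value, nor has its contrast with Ahr. At that threshold 158 genes passed 2-fold upward and 172 downward, in place of 266 and 283, with 8788 genes in place of 10147 counted. The excess of Ahr over Ahrr ran from 1.76 to 2.42 and over Tiparp from 2.05 to 2.38. With dim values at a threshold all 3 Tc1 signals become equal, so the excess is then only the gap between Tc9 signals of different probes. Of 108 list counts under alternatives, 54 were 0 both there and as reported, and 48 of the other 54 stayed within 1.5 times. Slc7a8 alone in its list lost its call, with the pseudocount. Taking the mean of probe sets changed none of the 3 genes, which have 1 each. No paired analysis was possible because each group has 1 array, and leaving out a replicate could not be run for the same reason.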

Other observations

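Because Arntl and Npas2 of the bHLH-PAS family were past 2-fold as measured, Arntl not with the pseudocount of 32 or with dim values at the 95th percentile of negative controls, other clock genes were read, in a list written after those values were seen. None of 11 detectable of 13 measured genes passed 2-fold. Dbp, an output factor of the clock, had log2 signals of 8.98 and 9.69, and Rora, a nuclear receptor that activates Arntl, had 7.19 and 8.07. Per1, Per2 and Per3, the period repressors, had differences of -0.04, 0.09 and -0.02. Bhlhe40, a repressor of clock genes and a factor of type 1 T cells, was 1.84-fold lower in Tc9 cells, at 12.77 and 11.89. The median of the detectable genes was 0.24.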
